A study of Homo sapiens with 48 samples.

Results

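The genes described here are 29 human genes of cholesterol and fatty acid synthesis. They were chosen by symbol, for their place in the pathway, with earlier results of these data known. They are 18 enzymes that turn acetyl-CoA into cholesterol (ACAT2, HMGCS1, MVK, PMVK, MVD, IDI1, FDPS, FDFT1, SQLE, LSS, CYP51A1, TM7SF2, MSMO1, NSDHL, HSD17B7, EBP, SC5D and DHCR7), 4 genes that sense, carry or regulate sterols (INSIG1, STARD4, SREBF1 and SREBF2), and 7 enzymes that make, lengthen or desaturate fatty acids (SCD, FASN, ACACA, ACLY, ELOVL6, FADS1 and FADS2). Of the 48898 Ensembl genes of the count table, 48679 had a symbol, and each of the 29 symbols matched 1 of them. All 29 passed the filter on low counts in every fit.

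Poly(A) RNA was sequenced from 2 human cell lines in 16 groups of 3 libraries. SK-MEL-103 is a melanoma line and IMR-90 a line of fetal lung fibroblasts, each a single line. Cells were driven into senescence, in which division stops for good, with 200 nM doxorubicin over 48 h; the drug breaks DNA by trapping topoisomerase II. The study asked what the mitofusins MFN1 and MFN2, which fuse mitochondrial outer membranes, and MAVS, an antiviral signalling adaptor on that membrane, contribute to the RNA of such cells. In each line, doxorubicin-treated cells carried an siRNA against MFN1 (siMFN1), MFN2 (siMFN2), both (siMFN1+2) or MAVS (siMAVS), or the negative control siRNA (cNEG), transfected a day earlier, with RNA taken on day 7; proliferating cells without doxorubicin carried cNEG. In a separate IMR-90 experiment, cells 7 days from the start of doxorubicin received 20 µM MFI8, 10 µM BI or DMSO, the solvent, over 48 h, with RNA taken on day 9; proliferating cells received DMSO. The labels give no day for the proliferating libraries, which are named here by the experiment they belong to, and all cells grew in medium with fetal bovine serum. MFI8 was meant to inhibit and BI to activate both mitofusins.

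Cholesterol is built from acetyl-CoA through mevalonate, farnesyl diphosphate, squalene and lanosterol. When the membrane of the endoplasmic reticulum is poor in sterol, SCAP carries the SREBP precursors to the Golgi, where proteases release transcription factors that switch on nearly every gene of the pathway; when sterol is plentiful, INSIG proteins hold SCAP back. SREBP2, from SREBF2, acts mainly on sterol genes, and SREBP1, from SREBF1, mainly on fatty acid genes. Dividing cells need both products for new membrane.

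The promoters of the members that fell most in both lines under doxorubicin (below, among those with an entry that could be shown) are given with those of SREBF2, the master regulator, and TM7SF2, the one member that rose in SK-MEL-103. Each line gives the 250 bases before the annotated start in RefSeq GRCh38.p14, read on the gene's own strand. Capitals mark CCAAT or its reverse complement ATTGG (the NF-Y box), TCACNCCAC (a sterol regulatory element) and CACGTG (an E-box).
SCD, chr10:100346983-100347232, plus strand: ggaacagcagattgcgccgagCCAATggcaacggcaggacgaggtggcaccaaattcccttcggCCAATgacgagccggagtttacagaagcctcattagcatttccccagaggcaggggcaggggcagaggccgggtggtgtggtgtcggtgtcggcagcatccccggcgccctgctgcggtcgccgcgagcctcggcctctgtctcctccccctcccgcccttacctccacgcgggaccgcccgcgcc
ELOVL6, chr4:110198616-110198865, minus strand: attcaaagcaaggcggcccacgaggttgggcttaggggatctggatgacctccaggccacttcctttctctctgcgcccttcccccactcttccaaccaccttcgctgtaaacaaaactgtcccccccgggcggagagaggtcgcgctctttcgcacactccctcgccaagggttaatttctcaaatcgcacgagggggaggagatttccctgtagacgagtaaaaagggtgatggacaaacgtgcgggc
FADS1, chr11:61817004-61817253, minus strand: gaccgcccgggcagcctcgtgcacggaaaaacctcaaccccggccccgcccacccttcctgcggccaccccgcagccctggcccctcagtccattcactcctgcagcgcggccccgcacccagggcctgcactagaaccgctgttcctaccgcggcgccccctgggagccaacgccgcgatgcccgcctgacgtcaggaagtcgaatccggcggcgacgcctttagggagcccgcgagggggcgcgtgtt
INSIG1, chr7:155297628-155297877, plus strand: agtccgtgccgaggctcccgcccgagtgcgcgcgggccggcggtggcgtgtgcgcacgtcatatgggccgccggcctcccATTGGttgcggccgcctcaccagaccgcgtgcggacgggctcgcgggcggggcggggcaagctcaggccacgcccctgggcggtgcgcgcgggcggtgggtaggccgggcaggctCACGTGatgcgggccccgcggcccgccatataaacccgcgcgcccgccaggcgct
MVK, chr12:109573544-109573793, plus strand: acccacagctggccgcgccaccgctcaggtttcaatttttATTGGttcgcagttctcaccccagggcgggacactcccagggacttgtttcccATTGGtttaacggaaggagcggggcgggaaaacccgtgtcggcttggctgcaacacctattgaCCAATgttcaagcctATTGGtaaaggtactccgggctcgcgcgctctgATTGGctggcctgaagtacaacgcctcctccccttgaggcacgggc
SREBF2, chr22:41832855-41833104, plus strand: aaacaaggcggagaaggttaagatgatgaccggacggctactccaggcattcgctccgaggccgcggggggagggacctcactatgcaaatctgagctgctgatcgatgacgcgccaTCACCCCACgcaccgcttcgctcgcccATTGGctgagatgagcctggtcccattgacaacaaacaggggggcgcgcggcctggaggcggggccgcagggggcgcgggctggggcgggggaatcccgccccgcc
TM7SF2, chr11:65111622-65111871, plus strand: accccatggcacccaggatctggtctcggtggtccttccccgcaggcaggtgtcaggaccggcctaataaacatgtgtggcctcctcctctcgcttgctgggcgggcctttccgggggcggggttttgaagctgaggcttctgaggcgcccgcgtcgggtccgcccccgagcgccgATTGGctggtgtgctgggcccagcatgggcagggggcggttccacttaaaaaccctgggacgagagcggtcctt

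MVK held 5 NF-Y boxes, SCD 2, and INSIG1, SREBF2 and TM7SF2 1 each. ELOVL6 and FADS1 had none in this stretch. SREBF2 carried the only TCACNCCAC among the members, 133 bases before the start, and INSIG1 an E-box 55 bases before it. RefSeq entries were present for 25 of the 29 members, as 34 windows of 300 bases (250 before and 50 after a start); ACAT2, FASN, FDFT1 and SQLE were not searched. Searched on both strands, CCAAT occurred in 70.6% of the member windows and in 34.6% of all 35116 windows, GGGCGG (the Sp1 box) in 88.2% against 45.0%, CACGTG in 11.8% against 7.3%, and TCACNCCAC in 2.9% against 1.1%. A match is a description of the letters, not a site or a cause.

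Levels are CPM, read counts scaled to a common library size with TMM factors. Calls rest on a threshold of 0.05 for padj, the Benjamini-Hochberg adjusted p of edgeR's quasi-likelihood test over all genes of the fit; changes are log2 fold changes with a standard error (SE). The labels do not say that replicates were separate cultures, so p-values measure only the spread between these libraries. Libraries held 15206115 to 79204217 counts, and depth fell with the replicate number (53390716 to 79204217 for number 1, 30176556 to 50828283 for number 2, 15206115 to 31127306 for number 3). Every IMR-90 library carried 3306 CPM or more of the fibroblast gene COL1A1. Every SK-MEL-103 library carried 368 CPM or more of the neural crest factor SOX10, while of the pigment cell markers MITF ran from 6.84 to 12.5 CPM there, DCT reached 2.73 CPM at most, and MLANA, PMEL and TYRP1 were at or below 0.65 CPM. In IMR-90, MITF was higher, at 16.2 to 78.0 CPM, and TYRP1, PMEL and MLANA reached 7.78, 1.37 and 0.117 CPM. DCT and SOX10 reached 0.845 and 0.304 CPM in IMR-90. EPCAM, PECAM1, CDH5, PTPRC and CD68, markers of epithelial, endothelial and blood cells, did not exceed 1.85 CPM in either line; the epithelial keratin KRT8 ran from 15.0 to 86.8 CPM in IMR-90 and from 7.49 to 16.5 CPM in SK-MEL-103. In these bulk samples, fewer cells expressing a gene and less RNA per cell cannot be told apart.

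A few libraries stood apart from their groups in the summed level of the 18 sterol enzymes. In proliferating SK-MEL-103, replicate 1 summed to 1636 CPM and replicates 2 and 3 to 1188 and 1090 CPM. Proliferating IMR-90 in DMSO had 1137 CPM in replicate 2 and 650 and 659 CPM in replicates 1 and 3. Of these, replicate 2 was the one nearer the proliferating IMR-90 of the siRNA experiment. In IMR-90 with siMAVS, replicate 1 had 1331 CPM and the other 2 libraries 775 and 809 CPM. Results that rest on these libraries are given with and without them.

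**Figure D1:**
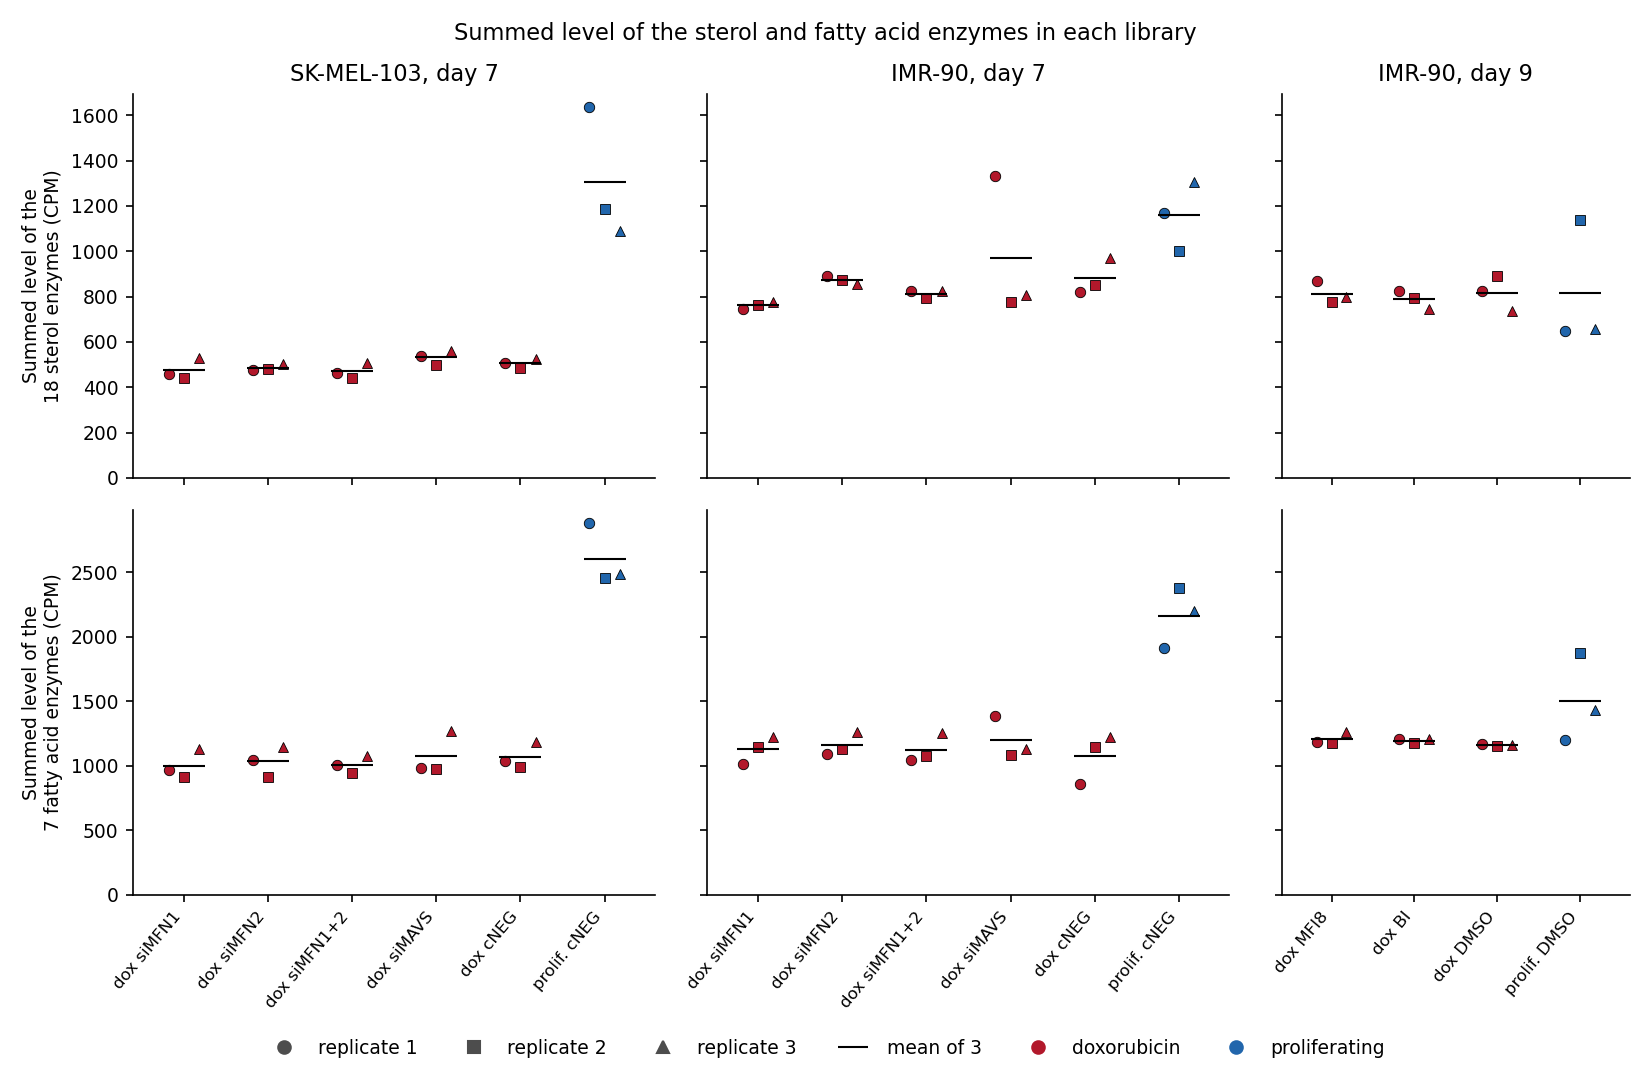
Summed CPM (linear axes from 0) of the 18 sterol enzymes (top) and the 7 fatty acid enzymes (bottom) in each library, by group, with symbols for the replicate number and a bar for the mean of 3. All 15 doxorubicin-treated SK-MEL-103 libraries lie below the 3 proliferating ones; at day 9 in IMR-90 the sterol sums of the groups overlap.

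Doxorubicin lowered nearly the whole pathway in SK-MEL-103. The 18 sterol enzymes summed to 505 ± 19.3 CPM in doxorubicin-treated cells and 1305 ± 291 CPM in proliferating cells (SD, n = 3 each), and the 7 fatty acid enzymes to 1069 ± 99.0 and 2604 ± 240 CPM. Of the 29 members, 27 fell and 1 rose (TM7SF2); SREBF1 was not called. Among all 17945 genes tested, 30.6% were called lower, 29.8% higher and 60.4% in either direction. The median log2 fold change was -1.28 over the members and 0.03 over all genes.

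ACAT2, which joins acetyl-CoA units at the entry to the pathway, had 13.5, 12.3 and 13.4 CPM in the doxorubicin-treated libraries, against 119, 53.6 and 56.3 CPM in the proliferating ones. Its log2 fold change was -2.65 (SE 0.23, edgeR padj 2.87e-08), the largest of the members. The groups were far apart, and proliferating replicate 1 was well above the other proliferating libraries. On GRCh38 the gene lies at chr6:159760328-159779055 (ENSG00000120437), and 43.1% of its exon bases overlap genes on the opposite strand, among them the chaperonin gene TCP1; TCP1 had 148 ± 8.25 CPM in doxorubicin-treated and 396 ± 21.5 CPM in proliferating SK-MEL-103 cells. Whether reads were counted by strand is not given in the sources used here.

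The enzymes that follow fell too. HMGCS1, which makes HMG-CoA, changed by -1.23 (SE 0.22, padj 0.000127), the kinases MVK by -1.50 and PMVK by -0.62, the decarboxylase MVD by -1.13, the isomerase IDI1 by -1.51 and farnesyl diphosphate synthase, FDPS, by -1.54. FDFT1, squalene synthase, changed by -1.80 (padj 6.5e-09). SQLE, squalene epoxidase and a control point of the pathway, had 15.8, 14.1 and 16.7 CPM in doxorubicin-treated cells, against 73.2, 58.9 and 49.5 CPM in proliferating cells (log2 -2.06, SE 0.19, padj 8.09e-08). The lowest proliferating library was still well above the highest treated one.

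Beyond lanosterol, MSMO1, the sterol methyl oxidase, had 23.3, 20.0 and 24.1 CPM in doxorubicin-treated cells and 106, 81.5 and 77.2 CPM in proliferating cells (log2 -2.07, SE 0.17, padj 1.85e-08). DHCR7, a reductase of the final steps, changed by -1.63, NSDHL by -1.33, HSD17B7 by -1.28, EBP by -1.23 and SC5D by -0.78. CYP51A1, lanosterol demethylase, changed by -1.53, but from 4.10 CPM at most; 79.4% of its exon bases are shared on the same strand with AC000120.2, so its level is uncertain. LSS, lanosterol synthase, was called at -0.48 (padj 0.0209) although its groups overlapped.

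TM7SF2, a sterol reductase, went the other way. It had 19.8, 22.8 and 22.8 CPM in doxorubicin-treated SK-MEL-103 and 9.72, 7.27 and 10.2 CPM in proliferating SK-MEL-103 (log2 1.18, SE 0.16, padj 8.96e-06). Every treated library lay above every proliferating one.

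Among the regulators, STARD4, which carries cholesterol through the cytosol, fell most. It had 16.6, 15.8 and 13.5 CPM in doxorubicin-treated cells and 80.7, 61.6 and 67.1 CPM in proliferating cells (log2 -2.28, SE 0.12, padj 6.54e-11). SREBF2 had 103, 88.9 and 104 CPM in treated cells, against 188, 181 and 201 CPM in proliferating cells (log2 -1.04, SE 0.16, padj 3.34e-05). INSIG1, itself an SREBP target, changed by -1.17 (padj 0.000213). SREBF1 was at 66.0, 76.0 and 75.0 CPM in treated cells and 75.3, 42.9 and 51.0 CPM in proliferating cells, and was not called (log2 0.26, padj 0.182); without proliferating replicate 1 it was called higher at 0.52 (padj 0.00376).

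All 7 fatty acid enzymes fell in SK-MEL-103. SCD, which puts the first double bond into saturated fatty acids, had 247, 230.4 and 241 CPM in doxorubicin-treated cells and 938, 902 and 796 CPM in proliferating cells (log2 -1.97, SE 0.09, padj 3.68e-11). FADS1, a desaturase of polyunsaturated fatty acids, had 77.4, 75.5 and 70.0 CPM in treated cells against 259, 247 and 241 CPM in proliferating cells, and its padj of 7.49e-12 was the smallest of the members. ELOVL6, which lengthens saturated fatty acids, changed by -2.13 (SE 0.15, padj 1.82e-09). The 3 genes were tightly grouped within each condition. FASN, fatty acid synthase, changed by -1.28, FADS2, the partner desaturase of FADS1, by -0.98, the carboxylase ACACA by -0.95 and ACLY, which supplies cytosolic acetyl-CoA, by -0.75.

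Without proliferating SK-MEL-103 replicate 1, 27 of the 28 calls were kept, LSS lost its call and SREBF1 gained one, giving 26 lower and 2 higher, against 29.9% lower and 29.5% higher of all genes; the member median was -1.18. In that fit HMGCS1 had -0.72, MVK -0.93, EBP -0.75, INSIG1 -0.76 and LSS -0.12 (padj 0.258). The summed level of 6 cycling genes (MKI67, TOP2A, CCNB1, CDK1, PCNA, MCM2) was 124 to 134 CPM in doxorubicin-treated and 1113 to 1767 CPM in proliferating SK-MEL-103, with 6 of 6 called lower. The part of cell cycle arrest in the fall of the lipid genes was not tested.

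**Figure D2:**
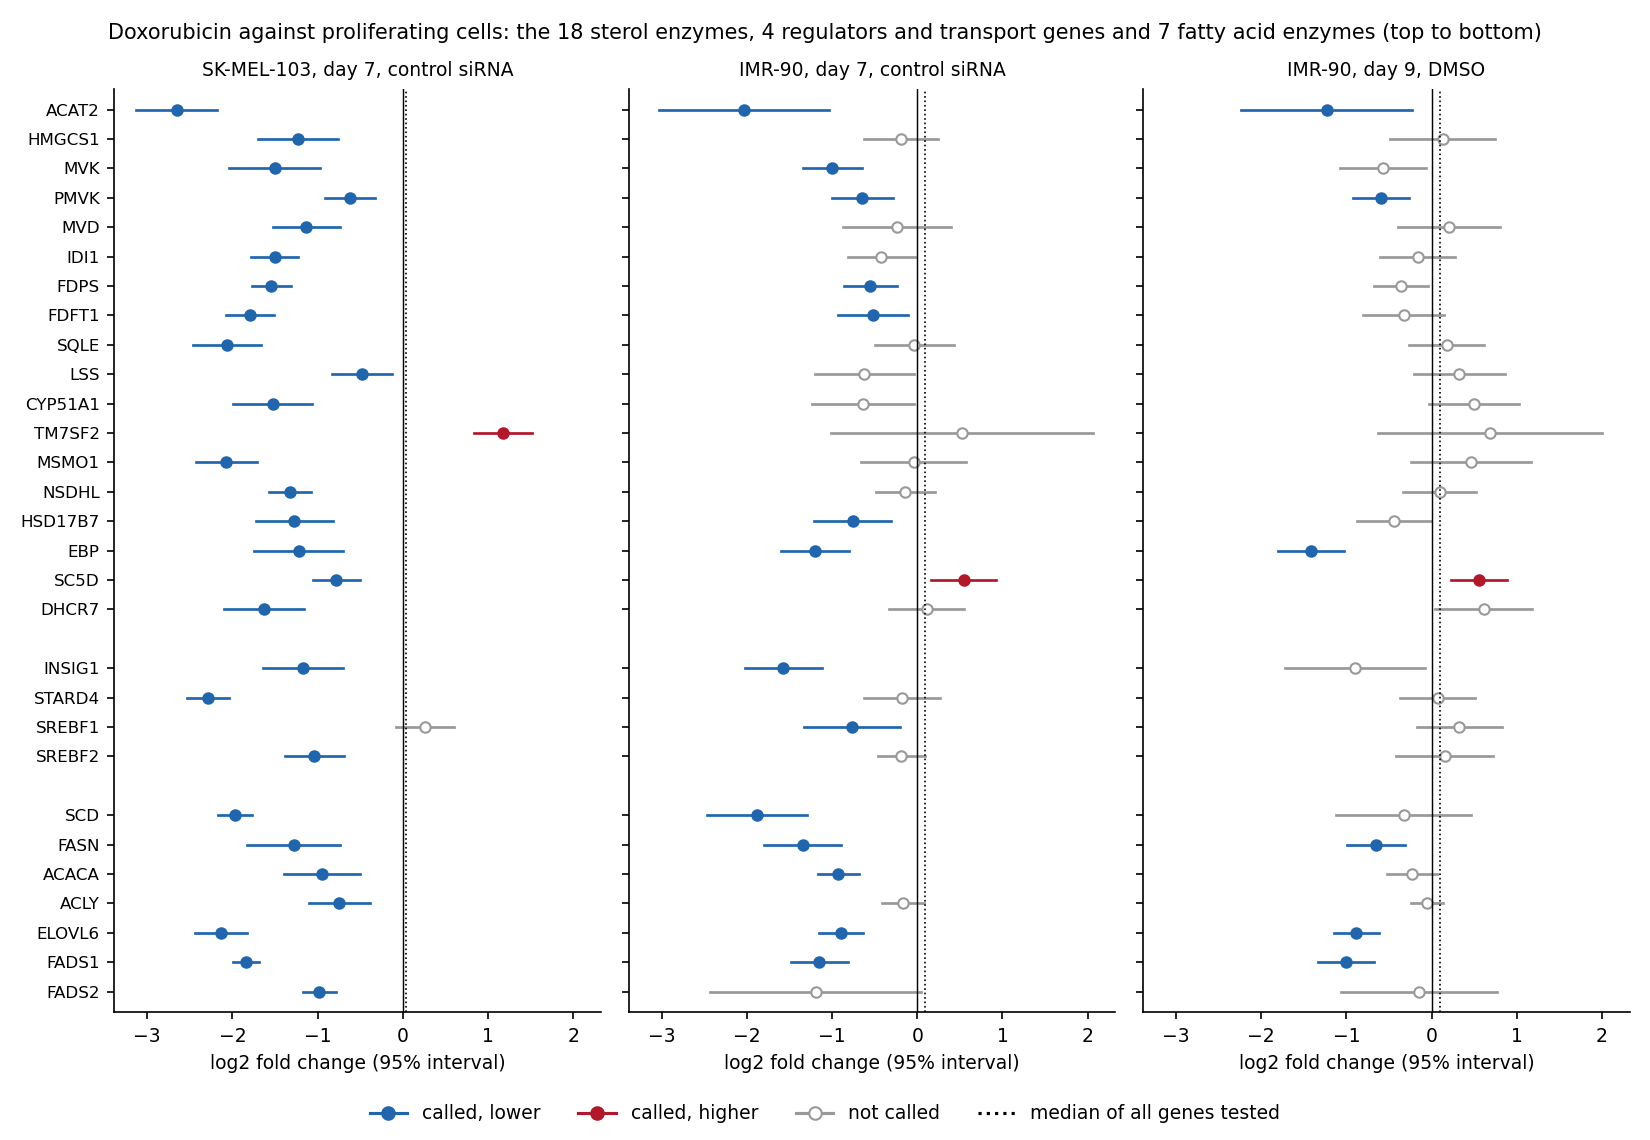
Log2 fold change of each member with its 95% interval, doxorubicin-treated over proliferating cells, in SK-MEL-103 at day 7, IMR-90 at day 7 and IMR-90 at day 9; filled points were called, and the dotted line is the median of all genes tested. The interval lies below 0 for 27 members in SK-MEL-103, while several sterol enzymes sit close to 0 in IMR-90.

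In IMR-90 at day 7, 5 of 7 fatty acid enzymes fell, as did 7 of 18 sterol enzymes and 2 of 4 regulators, and 1 sterol enzyme rose. The fatty acid sum was 1073 ± 191 CPM in doxorubicin-treated cells and 2162 ± 235 CPM in proliferating cells (SD, n = 3 each). The sterol sum was 880 ± 79.8 CPM in treated and 1159 ± 152 CPM in proliferating cells. Of the 29 members, 14 fell and 1 rose, against 24.4% lower, 27.4% higher and 51.8% in either direction among all 19077 genes tested. The median was -0.62 over the members, -0.47 over the sterol enzymes, -1.15 over the fatty acid enzymes and 0.09 over all genes.

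SCD had 97.1, 188 and 139.7 CPM in doxorubicin-treated IMR-90 and 360.4, 722 and 506 CPM in proliferating IMR-90 (log2 -1.88, SE 0.28, padj 6e-05). FASN had 144, 224 and 249 CPM in treated cells against 478, 517 and 606 CPM in proliferating cells (log2 -1.34, SE 0.21, padj 0.000106). FADS1 changed by -1.15, ACACA by -0.93 and ELOVL6 by -0.89. In each of these 5 genes the treated libraries lay below all proliferating ones. ACLY (log2 -0.17, padj 0.239) and FADS2 (log2 -1.19, padj 0.0981) were not called; FADS2 had 51.6 and 55.0 CPM in treated replicates 1 and 2 but 127 CPM in replicate 3, against 135, 235 and 173 CPM in proliferating cells.

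At the entry to the sterol pathway, ACAT2 had 14.3, 14.02 and 24.5 CPM in doxorubicin-treated IMR-90 and 71.3, 63.0 and 85.1 CPM in proliferating IMR-90 (log2 -2.03, SE 0.47, padj 0.00219). TCP1 on the other strand had 204 ± 10.95 CPM in treated and 430 ± 94.5 CPM in proliferating cells. MVK changed by -1.00, EBP, a sterol isomerase of the late steps, by -1.20, HSD17B7 by -0.76, PMVK by -0.64 and FDPS by -0.55. FDFT1 was called at -0.52 (padj 0.0347) although its groups overlapped, and the call was lost under 6 of 12 other settings (log2 -0.77 to -0.34, padj up to 0.172).

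Of the 18 sterol enzymes, 10 were not called in IMR-90. SQLE had 59.2, 68.9 and 77.1 CPM in doxorubicin-treated cells and 78.4, 67.8 and 68.3 CPM in proliferating cells (log2 -0.03, 95% interval -0.50 to 0.43, padj 0.912). MSMO1 had 69.7, 75.0 and 78.9 CPM in treated cells against 80.7, 71.6 and 83.0 CPM in proliferating cells (log2 -0.04, interval -0.66 to 0.57, padj 0.915). For both, the groups overlapped. HMGCS1 (log2 -0.19, padj 0.456), DHCR7 (log2 0.11, padj 0.667) and NSDHL (log2 -0.14, padj 0.497) were likewise not called, nor were MVD, IDI1, LSS, CYP51A1 and TM7SF2 (log2 -0.64 to 0.53). Of these, IDI1 (log2 -0.42, edgeR padj 0.0692), LSS (-0.62, padj 0.0685) and CYP51A1 (-0.64, padj 0.0686) were lower and just short of the threshold. LSS was called lower with the replicate block (padj 0.0351), and IDI1 without proliferating replicate 2 (log2 -0.62, padj 0.00812).

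SC5D, the sterol desaturase, was the 1 member that rose. It had 80.1, 77.2 and 64.6 CPM in doxorubicin-treated IMR-90 and 54.2, 52.8 and 48.5 CPM in proliferating IMR-90 (log2 0.55, SE 0.18, padj 0.0198). All treated libraries lay above all proliferating ones, but the call was lost under 4 of 12 other settings.

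INSIG1 had 26.4, 35.3 and 33.0 CPM in doxorubicin-treated IMR-90, against 82.8, 98.5 and 106 CPM in proliferating IMR-90 (log2 -1.57, SE 0.21, padj 2.74e-05). The groups did not overlap. SREBF1 was called at -0.77 (padj 0.0237) with overlapping groups, and without proliferating replicate 2 it had -0.36 (padj 0.184). SREBF2 had 172, 188 and 184 CPM in treated cells and 198, 226 and 209 CPM in proliferating cells (log2 -0.19, padj 0.24). STARD4 was at 68.2, 69.3 and 49.7 CPM in treated cells and 70.8, 83.5 and 62.4 CPM in proliferating cells (log2 -0.18, padj 0.489). The cycling genes summed to 134 to 166 CPM in treated and 1685 to 1996 CPM in proliferating IMR-90, with 6 of 6 called lower. Single genes differed more between the treated lines than these sums. MKI67 averaged 22.8 CPM in treated IMR-90 and 0.45 CPM in treated SK-MEL-103, TOP2A 22.6 and 2.09, CCNB1 20.1 and 9.41, and CDK1 5.25 and 0.80. PCNA (65.8 and 95.6 CPM) and MCM2 (19.1 and 21.4 CPM) were higher in treated SK-MEL-103. The part of cycling in these values, or in the difference between lines, was not tested.

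**Figure D3:**
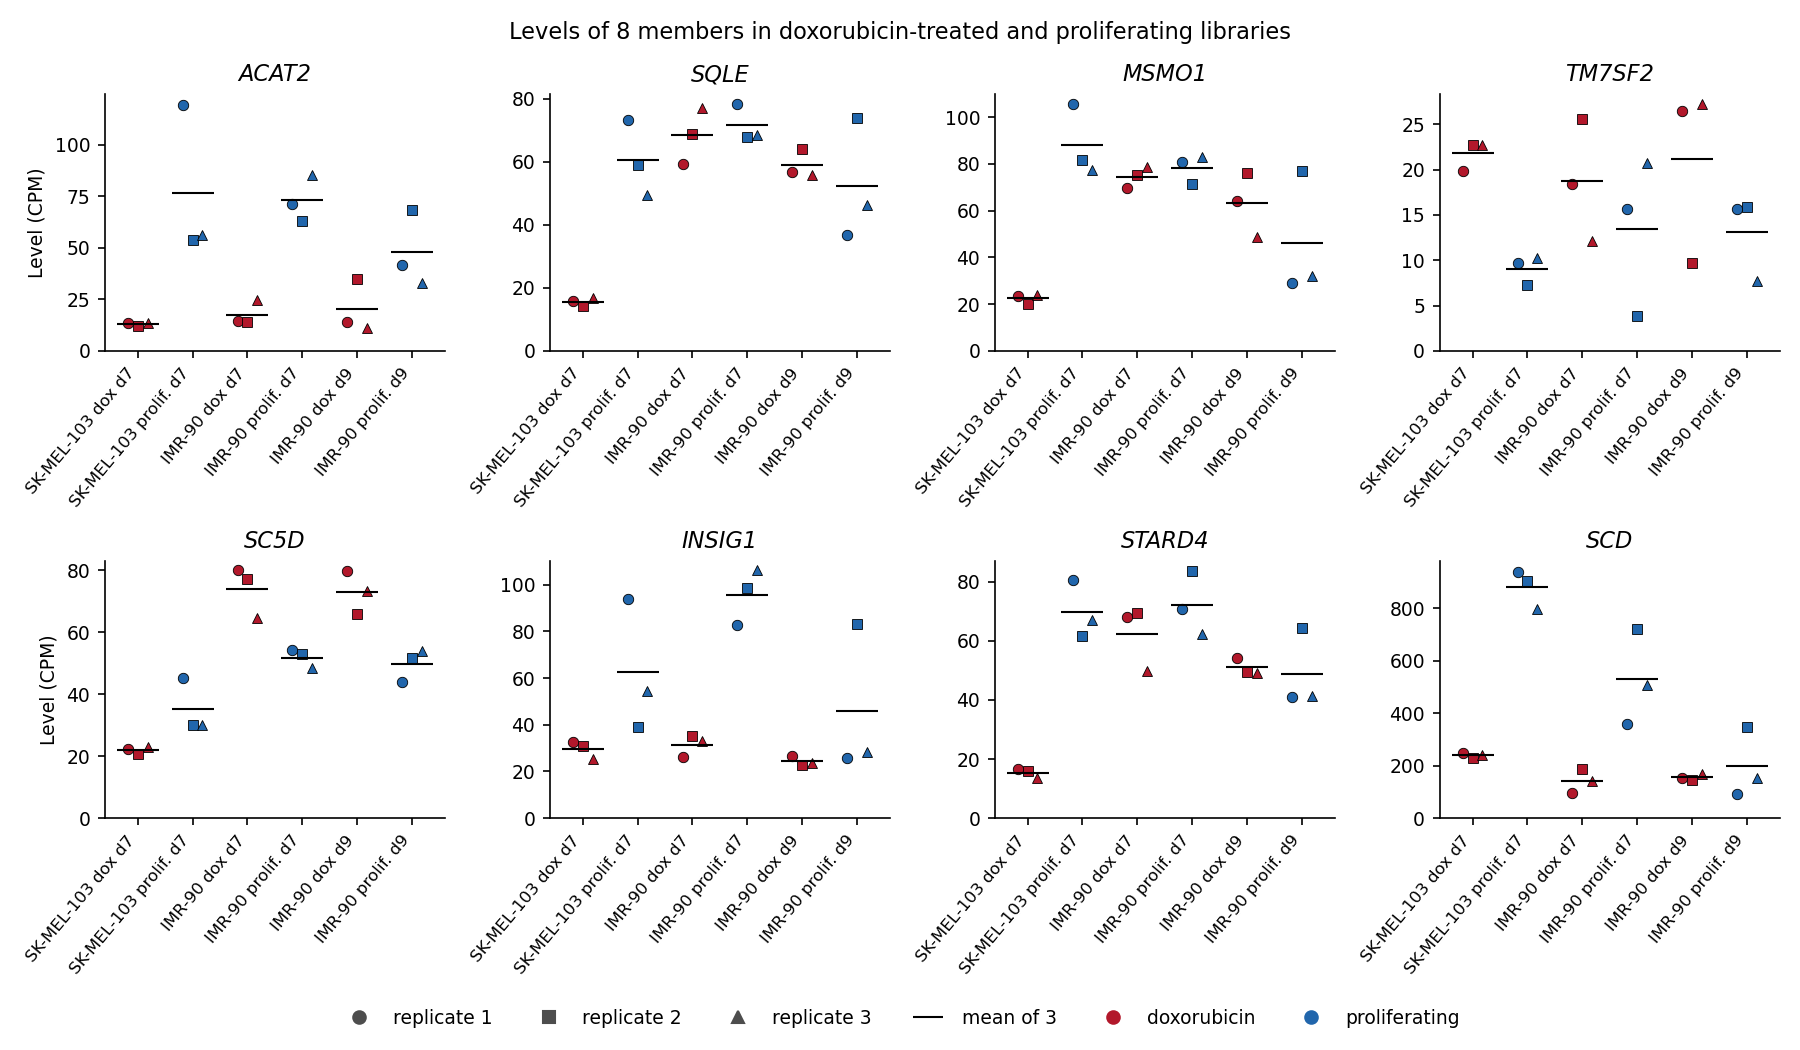
CPM (linear axes from 0) of 8 members in each doxorubicin-treated and proliferating library of the control arms, with symbols for the replicate number and a bar for the mean of 3. SQLE, MSMO1 and STARD4 separate the groups in SK-MEL-103 and overlap in IMR-90, ACAT2 and SCD separate them at day 7 in both lines, and SC5D is lower with doxorubicin in SK-MEL-103 and higher in IMR-90.

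At day 9, in the DMSO arms of the compound experiment, 6 members fell and 1 rose in IMR-90, against 27.1% lower, 28.8% higher and 55.9% in either direction of the 19056 genes tested. The median was -0.15 over the members and 0.10 over all genes. EBP had 4.62, 5.57 and 4.42 CPM in doxorubicin-treated cells and 11.3, 16.7 and 11.3 CPM in proliferating cells (log2 -1.41, SE 0.18, padj 7.06e-05). FADS1 changed by -1.01, ELOVL6 by -0.88, FASN by -0.65 and PMVK by -0.59, and SC5D rose again by 0.56 (SE 0.15, padj 0.00861). The groups of these 6 genes did not overlap. ACAT2 was called at -1.23 (padj 0.0391) with overlapping groups.

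This comparison turned on the proliferating group, whose libraries differed. SCD had 154, 147 and 169.5 CPM in doxorubicin-treated cells but 93.1, 346 and 154 CPM in proliferating cells, and INSIG1 had 26.6, 22.7 and 23.6 CPM in treated cells but 25.6, 83.2 and 28.3 CPM in proliferating cells. Neither was called. MSMO1 had 64.2, 76.3 and 48.8 CPM in treated cells and 29.1, 77.1 and 31.9 CPM in proliferating cells. In all 3 genes, replicates 1 and 3 of the proliferating group were far below replicate 2. Replicate 2 was the one nearer the proliferating IMR-90 of day 7. There INSIG1 had 82.8, 98.5 and 106 CPM and MSMO1 80.7, 71.6 and 83.0 CPM. Without replicate 2, 9 members were called higher and 5 lower, against 22.9% higher, 23.8% lower and 46.7% in either direction of all genes in the same fit, and the member median was 0.32, above the 0.13 of all genes. The 8 added calls were all higher with doxorubicin: MSMO1 (1.06), DHCR7 (1.00), CYP51A1 (0.88), LSS (0.72), SREBF1 (0.68), HMGCS1 (0.65), MVD (0.60) and SQLE (0.51). ACAT2 was then not called (log2 -0.88, padj 0.154), while EBP, FADS1, ELOVL6, FASN, PMVK and SC5D kept their calls without any 1 library. Leaving out proliferating replicate 1 or replicate 3 instead added lower calls. INSIG1 had -1.20 and -1.15 and FDPS -0.44 and -0.48, in that order. MVK was added without replicate 1 (-0.78) and HSD17B7 without replicate 3 (-0.57). The cycling genes summed to 171 to 324 CPM in doxorubicin-treated and 1634 to 1865 CPM in proliferating cells, with 6 of 6 called lower; their part was not tested.

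Whether the lines differed in their response was tested directly: a single fit of the 36 day 7 libraries gave each gene's doxorubicin effect in SK-MEL-103 less its effect in IMR-90. The lines were separate experiments, so line and experiment cannot be told apart. Of the members, 13 had a lower effect in SK-MEL-103 and 1 a higher one, against 9.16% lower, 13.0% higher and 22.2% in either direction of all 20892 genes. The median difference was -0.60 over the members, -0.84 over the sterol enzymes, 0.00 over the fatty acid enzymes and 0.03 over all genes. Scaling by relative log expression instead of TMM shifted all genes to -0.13 and the members to -0.75, with the same 14 calls and ACLY added.

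Of the sterol genes, the 4 with the largest differences had not been called in IMR-90. STARD4 differed by -2.01 (SE 0.25, padj 1.85e-06), SQLE by -1.93 (SE 0.30, padj 3.24e-05), MSMO1 by -1.93 (SE 0.34, padj 0.000186) and DHCR7 by -1.65 (SE 0.31, padj 0.000329). SC5D differed by -1.23 (padj 0.000283), having fallen in SK-MEL-103 and risen in IMR-90. FDFT1 (-1.18), NSDHL (-1.09), IDI1 (-0.99), HMGCS1 (-0.95), FDPS (-0.89) and SREBF2 (-0.76) were also called. Of the fatty acid enzymes, ELOVL6 differed by -1.15 (padj 7.86e-05) and FADS1 by -0.60 (padj 0.0106).

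SCD, FASN and ACACA were not called in this test. The difference for SCD was 0.00 (95% interval -0.59 to 0.59), for FASN 0.16 and for ACACA 0.08. ACAT2 (-0.52) and INSIG1 (0.50) were not called either. SREBF1 was the member with a higher effect in SK-MEL-103, at 1.13 (padj 0.0121). Without the libraries of replicate number 2 its difference was 0.19 (padj 0.777), so that call rests on them. Without replicate number 1, HMGCS1 had -0.54 (padj 0.198) and SREBF2 lost its call (padj 0.0728); without number 2, IDI1 did (padj 0.0661); and without number 3, FADS1 had -0.35 (padj 0.162).

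**Figure D4:**
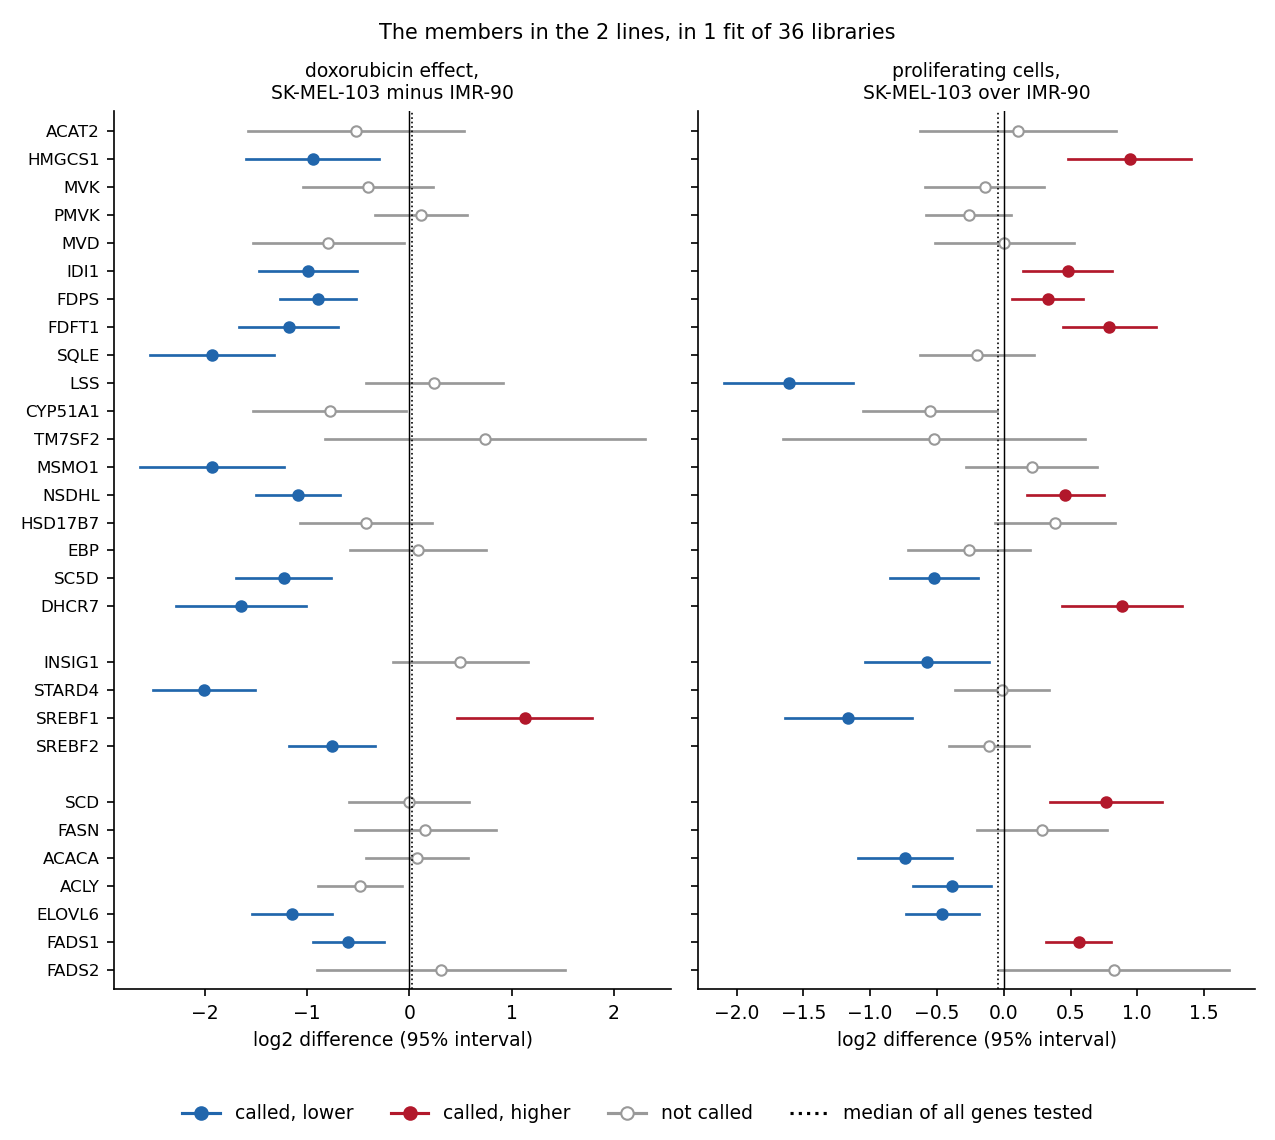
Log2 difference of each member with its 95% interval in 1 fit of 36 libraries, for the doxorubicin effect in SK-MEL-103 less the effect in IMR-90 (left) and for proliferating SK-MEL-103 over proliferating IMR-90 (right); filled points were called, and the dotted line is the median of all genes. On the left 13 members are called lower, led by STARD4, and on the right 8 are called higher and 7 lower.

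The proliferating lines differed in about as many members as in genes at large. In proliferating SK-MEL-103 against proliferating IMR-90, 8 members were higher and 7 lower, against 23.9% higher, 28.0% lower and 51.8% in either direction of all genes, with a member median of -0.01. HMGCS1 had 172, 75.5 and 74.8 CPM in SK-MEL-103 and 60.6, 42.8 and 69.4 CPM in IMR-90 (log2 0.94, padj 0.000902), and DHCR7 (0.89), FDFT1 (0.79), SCD (0.77), FADS1 (0.56), IDI1 (0.48), NSDHL (0.46) and FDPS (0.33) were also higher. LSS had 82.1, 42.6 and 46.3 CPM in SK-MEL-103 against 144, 204 and 189.7 CPM in IMR-90 (log2 -1.61, SE 0.24, padj 1.64e-06). SREBF1 (-1.16), ACACA (-0.74), INSIG1 (-0.58), SC5D (-0.52), ELOVL6 (-0.46) and ACLY (-0.39) were lower too. Many of these calls rested on single replicates. Without replicate number 1, the number of the SK-MEL-103 library that stood apart, 11 members were called, 4 higher and 7 lower, against 42.8% of all genes in that fit. HMGCS1 (0.46, padj 0.0561), FDPS (0.22, padj 0.259), NSDHL (0.39, padj 0.0931), IDI1, ACLY and ELOVL6 were then not called, while MVK (-0.78) and EBP (-0.67) were called lower. Without number 2, 8 members were called, 6 higher and 2 lower, against 39.9% of all genes, and without number 3, 12. Per kilobase of exon, SCD was the highest member in proliferating SK-MEL-103 and ACLY in proliferating IMR-90. SCD stood at 164 CPM per kilobase in SK-MEL-103 and 98.8 in IMR-90, ACLY at 74.8 in SK-MEL-103 and 101 in IMR-90, and CYP51A1, the lowest in both, at 1.05 in SK-MEL-103 and 1.60 in IMR-90. The level and rank of CYP51A1 are uncertain, since 79.4% of its exon bases are shared with AC000120.2.

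The siRNAs lowered their targets in senescent cells. In SK-MEL-103, MFN1 averaged 17.2 CPM with siMFN1 and 51.7 CPM with cNEG, MFN2 19.3 CPM with siMFN2 and 94.9 CPM with cNEG, and MAVS 61.3 CPM with siMAVS and 168 CPM with cNEG. In IMR-90 the pairs were 7.67 and 51.4 CPM for MFN1, 18.3 and 167 CPM for MFN2, and 45.5 and 129 CPM for MAVS. With siMFN1+2, MFN1 and MFN2 averaged 21.3 and 22.2 CPM in SK-MEL-103 and 11.9 and 19.0 CPM in IMR-90. Each target was called lower by edgeR in its own comparisons, with padj up to 0.00204. Across the 8 siRNA comparisons, 1 of the 29 members was called in 1 comparison.

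That member was ELOVL6, with siMFN1 in IMR-90. It had 22.8, 29.6 and 21.4 CPM with siMFN1, against 45.8, 42.9 and 46.8 CPM with cNEG (log2 -0.88, SE 0.12, padj 0.00392), and 88.0, 80.4 and 88.4 CPM in proliferating cells. Every siMFN1 library lay below every cNEG library. The gene lies at chr4:110045846-110199199 on the minus strand (ENSG00000170522). Of all genes, 1.58% were called in that comparison. The call held when any 1 library was left out (log2 -1.03 to -0.79 over all 12 other settings). Same-numbered libraries of these groups deviated together, and with the replicate number as a block ELOVL6 stayed at -0.88 (padj 0.00336) and FASN was called higher (log2 0.46, padj 0.0497), having 232, 304 and 305 CPM with siMFN1 and 144, 224 and 249 CPM with cNEG. The fit with the block called 724 of all genes, against 302 without it.

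Other conditions placed ELOVL6 nearer its control. IMR-90 libraries had 49.5, 42.1 and 44.8 CPM with siMFN2, 41.3, 33.5 and 36 CPM with siMFN1+2, and 48.9, 43.0 and 47.3 CPM with siMAVS, none called. The siMFN1+2 libraries lay below all cNEG libraries (log2 -0.29, unadjusted p 0.0306, padj 0.247). SK-MEL-103 had 9.10, 9.41 and 11.7 CPM with siMFN1 and 15.3, 13.6 and 15.4 CPM with cNEG. The SK-MEL-103 groups did not overlap, but the change was not called over all genes (log2 -0.55, unadjusted p 0.00162, padj 0.386), and the difference between the lines was not called (0.33, padj 0.639). With the replicate number as a block, ELOVL6 came nearer the threshold in SK-MEL-103 by edgeR (unadjusted p 0.000416, padj 0.0838) and was still not called.

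No other member was called with siMFN1 in IMR-90. The log2 fold changes were negative in 22 of 29 members, ELOVL6 included, with a median of -0.24 against 0 for all genes. An unadjusted p under 0.05 was found for 7 members and for 2999 of all 19077 genes. SREBF2 had 140.2, 135 and 129.7 CPM with siMFN1 and 172, 188 and 184 CPM with cNEG (log2 -0.43, padj 0.117). The SREBF2 groups did not overlap. The cycling genes summed to 198 to 345 CPM with siMFN1 and 134 to 166 CPM with cNEG, with none of 6 called, and their part in these values was not tested.

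No member was called in the remaining siRNA comparisons. Among all genes, 0.225% were called with siMFN2, 1.57% with siMFN1+2 and 0.634% with siMAVS in IMR-90, and 0.123% with siMFN1, 0.0669% with siMFN2, 0.240% with siMFN1+2 and 0.100% with siMAVS in SK-MEL-103. The counts of members at an unadjusted p under 0.05 were, in IMR-90, 1 with siMFN2, 4 with siMFN1+2 and 0 with siMAVS, and in SK-MEL-103, 1, 4, 1 and 2 with siMFN1, siMFN2, siMFN1+2 and siMAVS. Of all 19077 genes in IMR-90, 2569, 3124 and 2875 passed the same limit, in that order. Of all 17945 genes in SK-MEL-103, a smaller share did, at 1028, 615, 738 and 650. The lowest padj in IMR-90 was that of FADS1 with siMFN1+2, which had 53.5, 51.2 and 55.9 CPM with siMFN1+2 and 63.5, 71.7 and 94.5 CPM with cNEG (log2 -0.52, padj 0.104). Its groups did not overlap. The siRNA effects differed between lines in 0 members, against 0.153% of genes for siMFN1, 0.0431% for siMFN2, 0.144% for siMFN1+2 and 0.0431% for siMAVS. These siRNA comparisons share their cNEG libraries within a line.

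The siMAVS group in IMR-90 held the library that stood apart. With all 3 libraries the member median was 0.08 (21 of 29 positive), and without siMAVS replicate 1 it was -0.14 (8 of 29 positive). MSMO1 had 169 CPM in that library, and 56.9 and 61.7 CPM in the other 2, beside 69.7, 75.0 and 78.9 CPM with cNEG. ACAT2 had 54.1 CPM in it, and 16.6 and 18.4 CPM in the others, beside 14.3, 14.02 and 24.5 CPM with cNEG. No direction can be read for siMAVS from the members.

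**Figure D5:**
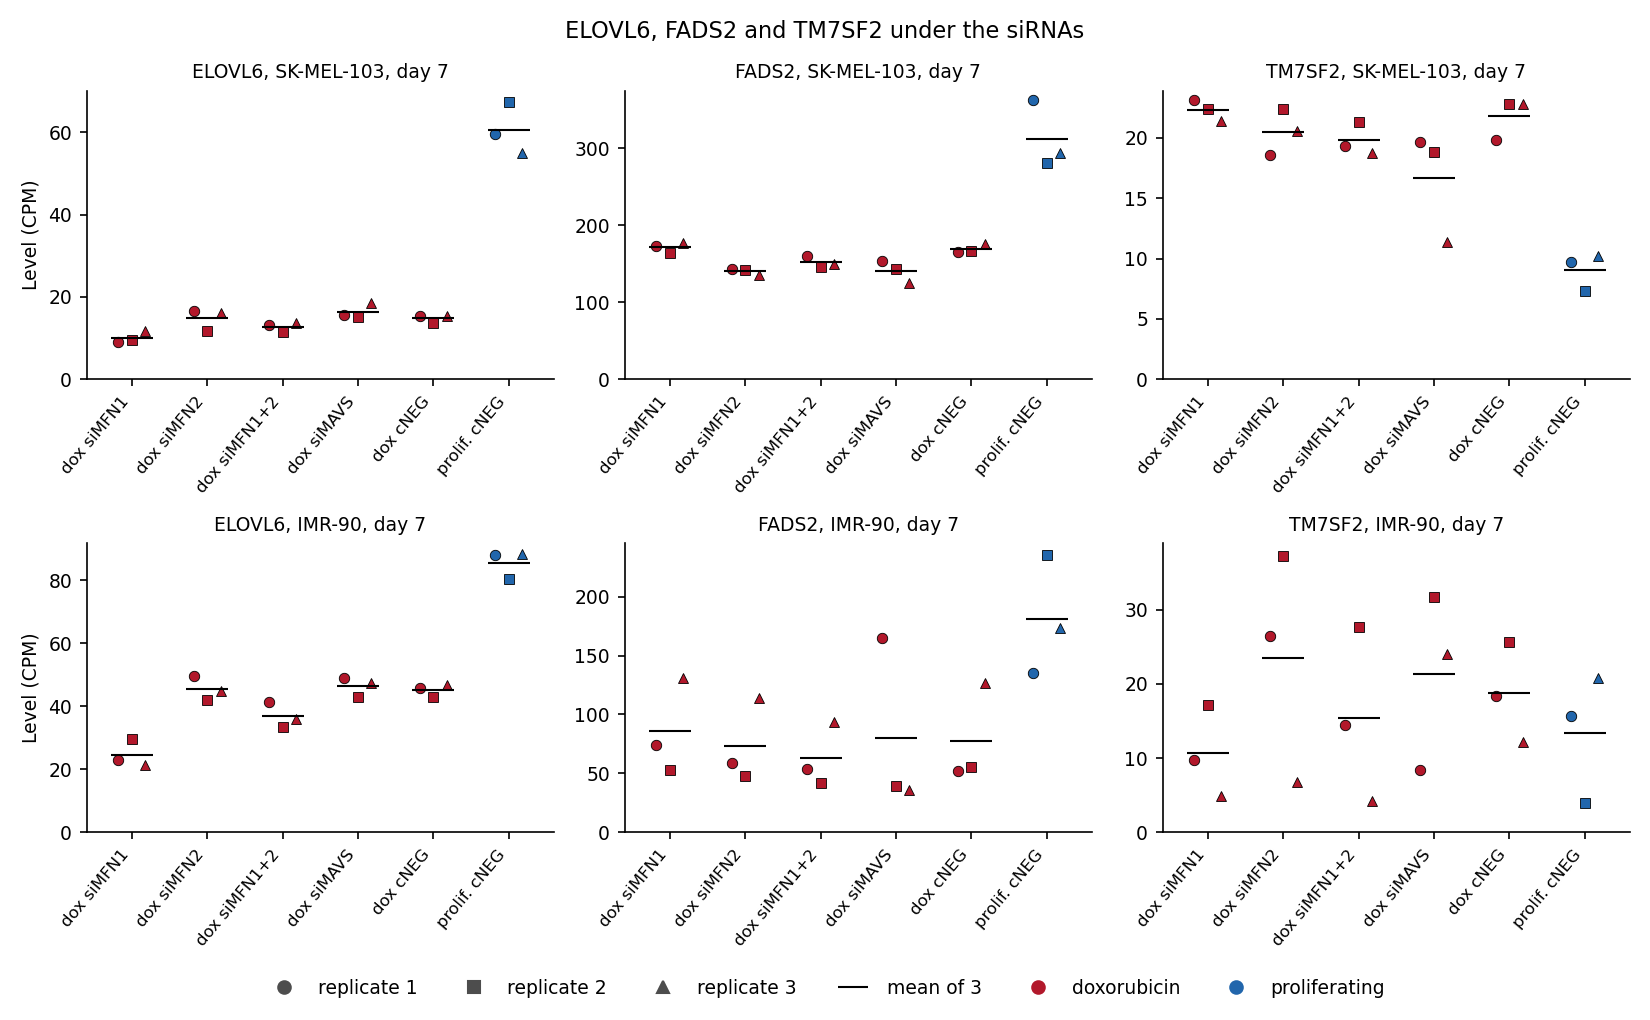
CPM (linear axes from 0) of ELOVL6, FADS2 and TM7SF2 in the day 7 libraries of SK-MEL-103 (top) and IMR-90 (bottom), by siRNA, with symbols for the replicate number and a bar for the mean of 3. In IMR-90, ELOVL6 is lowest with siMFN1, and FADS2 is high and TM7SF2 low in replicate 3 of 4 doxorubicin-treated groups and in replicate 1 of the siMAVS group.

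In doxorubicin-treated IMR-90, FADS2 and TM7SF2 had 1 library apart from the other 2 within several groups. FADS2 had 131, 114, 93.6 and 127 CPM in replicate 3 of siMFN1, siMFN2, siMFN1+2 and cNEG, where replicates 1 and 2 of those groups had 41.5 to 73.7 CPM. In the siMAVS group it was replicate 1 that was high, with 165 CPM against 39.2 and 35.5 CPM. TM7SF2 ran the other way, with 4.92, 6.81, 4.17 and 12.2 CPM in the same replicate 3 libraries and 8.37 CPM in siMAVS replicate 1, beside 31.7 and 24.0 CPM in siMAVS replicates 2 and 3. At day 9 the library apart was replicate 2, with FADS2 at 73.1, 100.1 and 93.3 CPM and TM7SF2 at 6.49, 9.87 and 9.66 CPM with MFI8, BI and DMSO. The replicate 3 libraries of the other 5 IMR-90 groups of day 7 have library codes in a range of their own, and none of the siMAVS libraries does. The labels do not settle whether a number marks the same culture in the siMAVS group as in the others, and what sets these libraries apart was not tested.

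Neither compound moved a member past the threshold. No member was called with MFI8 (0% of all genes called, 371 genes at an unadjusted p under 0.05), with BI (0%, 175 genes) or in MFI8 against BI (0%, 326 genes), by edgeR, and no member was called with DESeq2. In these fits no member had an unadjusted p under 0.05; same-numbered libraries deviated together here, and with the replicate number as a block 1 member did with MFI8 (FADS1, p 0.0291, padj 0.872), 0 with BI and 1 in MFI8 against BI (ELOVL6, p 0.0398, padj 0.853). Against DMSO the log2 fold changes ran from -0.39 to 0.33 with MFI8 (median 0.01) and from -0.25 to 0.21 with BI (median -0.03). FASN had 288, 243 and 327 CPM with MFI8, 287, 249.9 and 288 CPM with BI, and 276, 247 and 297 CPM with DMSO. ELOVL6 had 48.5, 49.0 and 43.7 CPM with MFI8, 44.9, 38.3 and 37.1 CPM with BI, and 47.8, 38.0 and 38.2 CPM with DMSO. The ranges of the 3 groups overlapped for both genes, although ELOVL6 was higher with MFI8 than with DMSO in each of the 3 same-numbered pairs. FADS1 had 76.8, 83.4 and 69.9 CPM with MFI8, 78.0, 72.7 and 62.8 CPM with BI, and 67.6, 65.3 and 53.8 CPM with DMSO. Its MFI8 libraries lay above all DMSO libraries (log2 0.30, SE 0.12 with the block), as did those of INSIG1, at 33.0, 30.6 and 28.2 CPM with MFI8 against 26.6, 22.7 and 23.6 CPM with DMSO (log2 0.33, SE 0.36 with the block, padj 0.995). With BI, MVK (log2 -0.18) and SQLE (log2 -0.15) lay below and SCD (log2 0.21) above all DMSO libraries, none called. The share of all genes whose groups lay apart in this way was not counted, so no compound effect can be read from these members. For ELOVL6 the log2 fold change over DMSO was 0.19 with MFI8 (95% interval -0.07 to 0.45) and -0.04 with BI (interval -0.31 to 0.22), and for FASN 0.07 with MFI8 (interval -0.27 to 0.40) and 0.01 with BI (interval -0.33 to 0.34). MFI8 and BI were given at different doses; in the direct comparison the members ran from -0.28 to 0.30.

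Under doxorubicin, genes around the pathway were called in both directions, in several lists about as often as genes at large (60.4% of all genes in SK-MEL-103, 51.8% in IMR-90 at day 7 and 55.9% at day 9). Of 7 further genes of SREBP processing, 3 rose and 1 fell in SK-MEL-103, where SCAP, the sterol sensor, had -0.47 and MBTPS2, a protease that releases SREBP, 0.28; in IMR-90 at day 7, 2 rose and 1 fell, among them INSIG2, a second SCAP anchor, at 0.89. Of the genes of sterol efflux and LXR signalling, 2 of 5 tested rose in SK-MEL-103 (MYLIP, which marks lipoprotein receptors for degradation, at 1.35 and NR1H3, an LXR receptor, at 0.68). Both were low there: MYLIP averaged 0.979 CPM in proliferating and 2.65 CPM in treated cells, and NR1H3 1.02 and 1.82 CPM. In IMR-90 the cholesterol exporter ABCA1 averaged 58.9 CPM in doxorubicin-treated and 14.3 CPM in proliferating cells at day 7 (log2 2.07, SE 0.55, edgeR padj 0.0055). Those proliferating libraries were spread from 3.6 to 31.4 CPM. ABCA1 rose by 3.84 at day 9, where proliferating cells averaged 3.35 CPM, while NR1H3 fell by 0.97 at day 7.

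Among 8 genes of sterol handling, 3 rose and 3 fell in SK-MEL-103, and 5 rose and 2 fell in IMR-90 at day 7, beside 29.8% of all genes higher and 30.6% lower in SK-MEL-103, and 27.4% higher and 24.4% lower in IMR-90. LIPA, the lysosomal lipase that frees cholesterol, had 1.00 in SK-MEL-103 and 0.69 in IMR-90; SOAT1, which esterifies cholesterol, had -1.03 and -0.79, and the sterol-binding protein OSBPL6 -1.57 and -1.38. Of 9 genes on branches of the mevalonate pathway, 1 rose and 4 fell in SK-MEL-103, and 3 rose and 5 fell in IMR-90. COQ2 and PDSS1, which make ubiquinone, had -1.44 and -1.23 in SK-MEL-103 and -1.88 and -1.67 in IMR-90, and GGPS1, which makes the geranylgeranyl anchor, 0.64 and 0.47.

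Of 16 genes of fatty acid supply and elongation, 1 rose and 9 fell in SK-MEL-103, and 4 rose and 4 fell in IMR-90. In either direction this is 62.5% of the list in SK-MEL-103 and 50.0% in IMR-90, close to the shares of all genes. By direction, the list leaned lower in SK-MEL-103, where 30.6% of all genes were called lower and 29.8% higher. ELOVL5, an elongase of polyunsaturated fatty acids, had -1.58 in SK-MEL-103 and -1.18 in IMR-90, and FADS3, a relative of FADS1 and FADS2, 0.66 and 1.26. Among genes of triglycerides and lipid droplets, 4 rose and 3 fell of 8 tested in SK-MEL-103, and 2 rose and 1 fell of 9 in IMR-90; the lipase PNPLA2 had 0.77 and 0.61, GPAM, which starts triglyceride synthesis, -0.53 and -1.02, and the droplet protein HILPDA fell by 1.90 in SK-MEL-103. For fatty acid oxidation, 5 rose and 4 fell of 10 in SK-MEL-103, and 3 rose and 2 fell of 11 in IMR-90, or 90.0% and 45.5% of those tested. SLC25A20, the carnitine carrier, had 2.10 and 1.39, ACADVL, which opens the oxidation of very long chains, 1.03 and 0.53, HADH -1.14 and -1.31, and ACADM -0.81 and -0.90, in SK-MEL-103 and IMR-90 in that order. At day 9 in IMR-90, the genes that rose and fell numbered 2 and 0 of 7 for SREBP processing, 3 and 1 of 6 for efflux, 2 and 2 of 8 for sterol handling, 2 and 6 of 9 for mevalonate branches, 5 and 3 of 16 for fatty acid supply, 2 and 1 of 9 for triglycerides, and 3 and 2 of 11 for oxidation, beside 28.8% of all genes higher and 27.1% lower.

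Over the 16 group means, the pattern of HMGCS1 in log2(CPM + 1) was most like that of ERG28 (Pearson r 0.918), PDLIM3 (0.852), TIMM17A (0.834), COX7B (0.834), AXIN2 (0.832), ABRACL (0.825), TMEM244 (0.822), CKLF (0.819) and NTRK3 (0.814), with 1 gene without a symbol among the 10 highest of 16144. The most like member was FADS2, at 0.734 and rank 60, and TM7SF2 had the lowest value of the members, at -0.478. The means share cell line, experiment and control libraries, so these values only describe the groups.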

How the data were processed

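The deposited table holds raw counts per Ensembl gene for 48 libraries, whole numbers with no normalization by the authors. Per the submitters' processing notes, Trim Galore 0.6.7, STAR 2.7.10a, featureCounts and the GRCh38 genome were used; the annotation release, strand setting and treatment of multiply mapped reads are not given in the sources used here. The kit was stranded, per the labels. Gene positions are from GENCODE 29. Rows without a symbol held 0.122% of counts.

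Genes were filtered with filterByExpr, scaled by TMM and tested with edgeR 4.0.16 (R 4.3.3, limma 3.58.1) by the quasi-likelihood F test, with the groups of an experiment in a single fit and no replicate block; differences between lines came from 1 fit of 36 libraries. P-values were adjusted over all genes by Benjamini-Hochberg (threshold 0.05). The SE was taken as the log2 fold change divided by the root of its F statistic. There were 20 comparisons, and the code was tested on simulated data. Alternatives were RLE size factors, no filter, a replicate block, a term for the range of library codes, DESeq2 1.42.0 and edgeR's earlier quasi-likelihood method (added after seeing the data). Each library was also left out, or each replicate number in the fit of 36 libraries. No 2 libraries of a group were copies (smallest chi-square per degree of freedom 11.1 over 48 pairs). PCR copies count as reads, since there were no molecular identifiers, so precision from counts covers counting error only.

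Members and lists were chosen with earlier results of these data known. All members may be named; from each further list, up to the 2 highest and 2 lowest called genes; promoters, the members with the largest called falls in both lines outside chromosome 8, to which SREBF2 and TM7SF2 were added after their values were seen. Replicate numbers come from the titles. Every same-numbered pair deviated together (correlation over 0.1) for siMFN1, siMFN2 and siMFN1+2 in IMR-90, for siMFN1, siMFN1+2 and siMAVS in SK-MEL-103 and for the compounds, but not for doxorubicin or IMR-90 siMAVS. The title of 1 library of siMFN2 in SK-MEL-103 lacks a number, and it was numbered 1.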

Additional observations from a re-analysis of the deposited data

Results flagged for a closer look

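For 14 members the doxorubicin effect differed between the lines, tested as SK-MEL-103 minus IMR-90 in 1 edgeR fit of 36 libraries with Benjamini-Hochberg adjustment over all genes. On the log2 scale, the effect was lower in SK-MEL-103 for STARD4 (-2.009), SQLE (-1.932), MSMO1 (-1.932), DHCR7 (-1.647), SC5D (-1.229), FDFT1 (-1.18), ELOVL6 (-1.146), NSDHL (-1.089), IDI1 (-0.99), HMGCS1 (-0.945), FDPS (-0.893), SREBF2 (-0.757) and FADS1 (-0.596). For SREBF1 it was higher (1.128). The lines were separate experiments, so line and experiment cannot be told apart.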

How the results depend on the processing

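No call of a member reversed under any alternative. For doxorubicin, 27 to 28 members were called in SK-MEL-103, 12 to 18 in IMR-90 at day 7, 6 to 14 at day 9 and 11 to 15 for the difference between lines; in that order, 27 of 28, 12 of 15, 6 of 7 and 9 of 14 members kept their call in every setting. Leaving out 1 library each gave 6 to 14 at day 9, with 14 without proliferating DMSO replicate 2. For the proliferating lines, leaving out all libraries of 1 replicate number gave 8 to 12, with 8 without number 2. There 4 of 15 members kept their call in every setting. With siMFN1 in IMR-90, 2 members were called with the replicate block (ELOVL6, and FASN at padj 0.0497) and 2 with DESeq2 (ELOVL6, and SREBF2 at padj 0.046). The block called 724 of all genes there, against 302 without it. With siMFN1+2 in IMR-90, 1 was called when the range of library codes was a term (FADS1, padj 0.0404), and with siMFN2 in SK-MEL-103, 1 with DESeq2 (FADS1, padj 0.0229); the cause was not tested. Where the numbers pair the libraries, the block changed no other call of a member. Where they share only a number, the block gave 17 member calls for doxorubicin in IMR-90 at day 7 and 10 at day 9. Those fits called 10579 of 19077 genes at day 7 and 13283 of 19056 at day 9. Members at a few CPM, such as CYP51A1 and EBP, rest on fewer counts than the others; whether depth limited their calls was not tested.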
